A study of Mus musculus with 4 samples.

Results

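The 10 genes described here encode feedback inhibitors of mitogen-activated protein (MAP) kinase signalling. The list was drawn up by gene name, with no threshold on the values but with earlier results of these data known. Dusp1, Dusp2, Dusp4, Dusp5, Dusp6 and Dusp10 encode dual-specificity phosphatases, and Spry1, Spry2, Spred1 and Spred2 encode Sprouty family proteins. All 10 were in the table of 53379 genes and among the 14739 genes tested, which had a mean above 1 FPKM (fragments scaled to transcript length and to the total of mapped fragments) in either group. Spred2 passed that limit only through its mean in the Brg1-deficient group.

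RNA was sequenced from group 3 innate lymphoid cells (ILC3s) of the mouse small intestine to ask which genes depend on Brg1, the ATPase of the SWI/SNF chromatin remodelling complex encoded by Smarca4, within the cell itself. Bone marrow cells from 2 kinds of donor were mixed in equal number and transferred into sublethally irradiated Rag2-/-Il2rg-/- hosts, which lack T, B and innate lymphoid cells of their own. After 6 to 7 weeks, Thy1.2high CD45low ILC3s were sorted from the digested lamina propria. Each group held 2 libraries that the study describes as biological duplicates.

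The Brg1-sufficient control cells came from Thy1.2/1.2 Rag1-/- Smarca4f/f donors and were sorted as Thy1.1-. The Brg1-deficient cells came from Thy1.1/1.2 Rag1-/- Smarca4f/f donors that also carried a Cre transgene and were sorted as Thy1.1+. Both kinds of cell therefore carried the Rag1 deletion and the floxed Smarca4 allele, and the groups also differed in their Thy1 allele. Smarca4 was at 17.07 and 16.73 FPKM in the control libraries against 9.98 and 9.03 FPKM in the Brg1-deficient ones, and the transcript of the recombined allele was not separated from that of the intact gene.

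MAP kinase cascades carry signals from cytokine, growth factor and stress receptors through Ras, Raf and a chain of kinases to ERK, p38 and JNK. The cells limit these signals at several points: Sprouty and Spred proteins act early, near the receptor and Ras, and dual-specificity phosphatases remove phosphate from the threonine and tyrosine of the active kinases at the end of the chain. Many of these inhibitors are themselves transcribed in response to the signal, so their mRNAs are often read as a trace of recent MAP kinase activity.

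The members were compact genes for the most part. In the GENCODE M21 annotation of GRCm38 they had a median of 4 exons and a median span of 13.0 kb, against 9 exons and 23.7 kb over 10587 tested protein-coding genes with a 3′ untranslated region of at least 50 bases. Dusp2 was the shortest, at 2.22 kb, and Spred2 was the longest, at 99.7 kb. The median 3′ untranslated region had 1110 bases in the members and 948 in all genes. AU-rich elements, which carry the pentamer ATTTA and are known to shorten the life of many inducible mRNAs, were counted there. The members held a median of 2.12 such pentamers per kb and all genes 1.27. Dusp2 and Dusp1 had the highest densities of the members, 6.89 and 5.80 per kb, and Dusp6 and Dusp5 the lowest, 0.841 and 0.902 per kb. The longer core TATTTAT occurred in 6 of the 10 members (60.0%) and in 2872 of the 10587 genes (27.1%), counts that were not corrected for the length of the region.

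All sites of this core in Dusp1, the most abundant member, in Dusp2, the member with the lowest relative level in Brg1-deficient cells, and 1 of the 2 sites in each of the related genes Spry1 and Spry2, those that share a longer run, are shown with 11 bases on either side, read 5′ to 3′ on the coding strand with the core in capitals.
Dusp1, chr17:26506159-26506187: gagctggtcctTATTTATttaacaccccc
Dusp1, chr17:26505870-26505898: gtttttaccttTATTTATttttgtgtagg
Dusp1, chr17:26505674-26505702: gtatgtttgttTATTTATgatctgaagta
Dusp2, chr2:127338304-127338332: acagcactttaTATTTATatagaacattg
Spry1, chr3:37644409-37644437: attgtaaagaaTATTTATtatgcgaatct
Spry2, chr14:105892092-105892120: agtgtaaagaaTATTTATttgaagtttta
The 3 sites of Dusp1 began 104, 393 and 589 bases after its stop codon. The Spry1 and Spry2 sites shown shared a run of 17 bases, tgtaaagaaTATTTATt. A match to these letters describes the annotated transcript and does not show that a protein binds there.

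The promoters, taken as 250 bases before to 50 bases after the transcription start in the RefSeq tables of GRCm38.p6, were found for 9 of the 10 members. They held between 17 and 40 CpG dinucleotides with a median of 28, against a median of 7 over 32851 promoters. Motifs of 4 factor families that respond to MAP kinase or cAMP signals were searched on both strands. The cAMP response element TGACGTCA was found in the promoter of Dusp1 alone among the members, and in 1.79% of all promoters. The serum response element core known as the CArG box was found in the promoter of Dusp5 alone among the members, as 2 touching copies, and in 1.63% of all promoters. The AP-1 motif, TGACTCA or TGAGTCA, occurred in 0 of the 9 member promoters and in 5.20% of all, and the ETS motif CCGGAAG in 0 of the 9 and in 8.86% of all. Both matches are shown in capitals, on the strand of the gene, because Dusp1 and Dusp5 are classical immediate early genes.
Dusp1, chr17:26508597-26508626, minus strand: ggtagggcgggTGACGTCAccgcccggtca
Dusp5, chr19:53529058-53529087, plus strand: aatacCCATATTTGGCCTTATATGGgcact

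Across the 4 libraries the members covered a wide range of levels, from Dusp1 at up to 1601.74 FPKM to Spred2 at as little as 0.47 FPKM. FPKM is a value per transcript length, so levels could be set side by side between genes. Dusp1 was first and Spry2 second of the 10 members in each library. Dusp4, Dusp5, Dusp6 and Dusp10 formed a middle group between 18.8 and 78.33 FPKM in which the libraries of neighbouring genes overlapped. Spry1 followed at 3.62 to 7.01 FPKM, below Dusp2 in control replicate 2 and above it in the other libraries. Dusp2, Spred1 and Spred2 were at the bottom, with libraries between 0.47 and 5.43 FPKM, and their order differed from library to library.

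**Figure D1:**
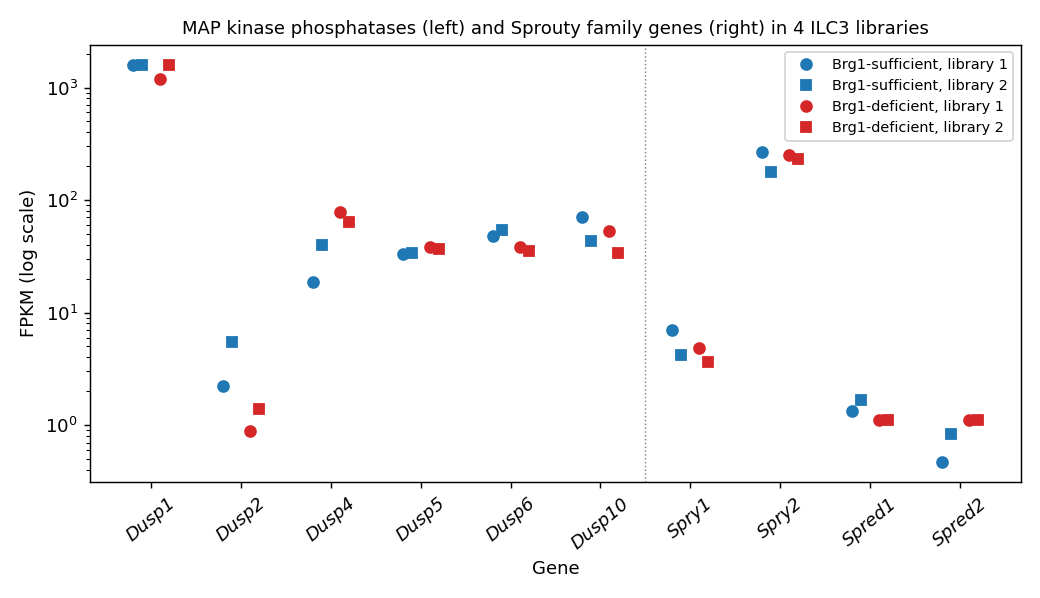
FPKM of the 6 phosphatase genes (left of the dotted line) and the 4 Sprouty family genes (right) on a log axis. Each point is 1 library, with Brg1-sufficient libraries in blue and Brg1-deficient libraries in red, and circles and squares mark libraries 1 and 2. Dusp1 and Spry2 lie above the other members in each library, and Dusp4 is the member whose red points lie furthest above the blue ones among those over 10 FPKM.

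Brg1-deficient and control ILC3s were then compared for the level of each inhibitor. None of the 10 members passed an adjusted p under 0.05 in limma with Benjamini-Hochberg adjustment, where 33 genes (0.224%) were lower and 12 genes (0.0814%) were higher among all those tested, 0.305% in both directions. The largest differences on log2(FPKM + 1) were in Dusp4, whose level was higher in Brg1-deficient cells, and in Dusp2 and Dusp6, whose levels were lower; with a pseudocount of 0.1, Spred2 (0.73) exceeded Dusp6 (-0.48) in size. These were the 3 members with an unadjusted p under 0.05, 2 lower and 1 higher, against a background of 6.47% lower and 6.12% higher genes. In limma without its variance trend, 0 members passed after adjustment, and 1 lower and 1 higher had an unadjusted p under 0.05. Both libraries of one group lay outside the range of the other in 3 members that were lower (Dusp2, Dusp6 and Spred1) and 3 that were higher (Dusp4, Dusp5 and Spred2), 6 members in all, where this held for 20.2% of all genes downward, 24.4% upward and 44.6% in either direction. The median difference on log2(FPKM + 1) was -0.23 over the members and 0.03 over all genes tested, and this scale understates the change of genes at low FPKM. For a single gene measured in 2 libraries a group, the smallest p of an exact permutation test (two-sided) is 0.33, and the p-values given here draw on a variance estimated by limma over many genes.

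**Figure D2:**
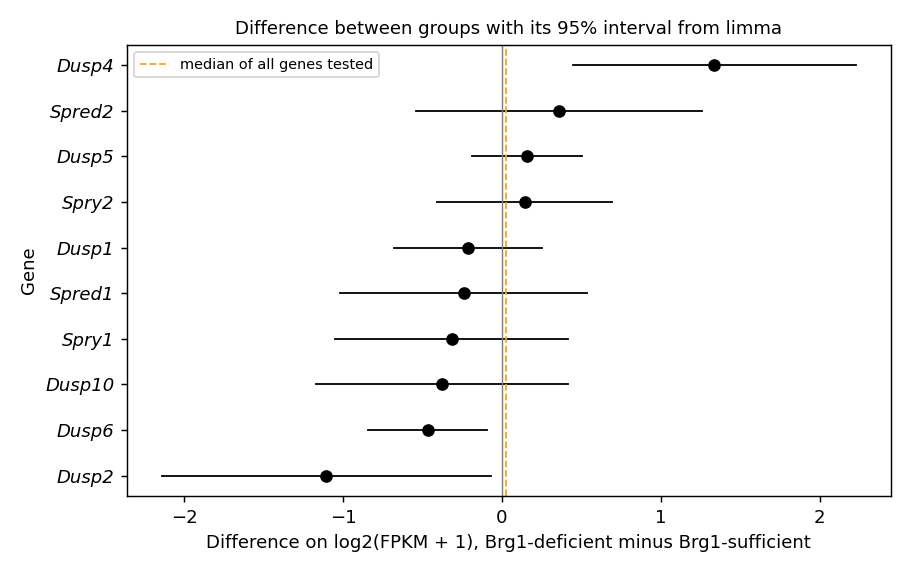
Difference between the groups on log2(FPKM + 1), Brg1-deficient minus Brg1-sufficient, for each member, with its 95% interval from limma as a line. The dashed line is the median of all genes tested, 0.03. The interval of Dusp4 lies above 0 and those of Dusp6 and Dusp2 below it, and the other 7 intervals span 0.

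Dusp1, Dusp2, Dusp4 and Dusp5 encode the inducible phosphatases that reside in the nucleus. Dusp1 (MKP-1), which inactivates p38 and JNK as well as ERK, was at 1601.74 FPKM in both control libraries and 1190.05 and 1601.74 FPKM in those from Brg1-deficient cells. The groups thus overlapped, and only one Brg1-deficient library was lower. The value 1601.74 recurs because Dusp1 was the 52nd highest gene in 3 of the libraries, where the deposited values depended almost wholly on a gene's rank, and it was 71st in the other. The control SD of 0 is for that reason no measure of the spread between these cells. The means were 1602 and 1396 ± 291 FPKM (SD, n = 2 each), and the difference on log2(FPKM + 1) was -0.21, with a 95% interval from -0.68 to 0.25 (limma, Benjamini-Hochberg adjusted p = 0.668). It was 0 without replicate 1 of the Brg1-deficient group and -0.43 without replicate 2.

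Dusp1 supplied most of the phosphatase mRNA. Its share of the summed FPKM of the 6 phosphatase genes was 90.2% and 90.1% in the control libraries and 85.1% and 90.3% in the Brg1-deficient ones. The sum itself was 1775 and 1778 FPKM in the control libraries and 1399 and 1773 FPKM in the Brg1-deficient ones, so that the groups overlapped. The locus annotated for Dusp1 reaches, through a long isoform, into the opposite-strand gene Ergic1, which stood between 16.69 and 20.46 FPKM, and the sources used here do not say whether reads were counted by strand.

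Dusp4 (MKP-2), a nuclear phosphatase of ERK and JNK induced by ERK itself, was at 18.8 and 39.53 FPKM in the 2 control libraries and 78.33 and 63.59 FPKM in those from Brg1-deficient cells. Both Brg1-deficient values lay above both control values, and the control libraries differed from each other more than the Brg1-deficient ones did. The means were 29.2 ± 14.7 and 71.0 ± 10.4 FPKM (SD, n = 2 each), a ratio of 2.43. The difference on log2(FPKM + 1) was 1.34 with a standard error of 0.354 and a 95% interval from 0.45 to 2.23, and it did not pass the adjustment (unadjusted p = 0.0112, limma, Benjamini-Hochberg adjusted p = 0.228). Its unadjusted p was the 727th lowest of the 14739. The size of the difference depended on the control libraries: it was 0.82 without control replicate 1 and 1.85 without control replicate 2.

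Dusp2 (PAC-1), a nuclear phosphatase found mainly in blood cells, was at 2.22 and 5.43 FPKM in the 2 control libraries and 0.88 and 1.38 FPKM in those from Brg1-deficient cells. Both Brg1-deficient values were below both control values, and the control values were the more widely spread. The Brg1-deficient mean, 1.13 ± 0.354 FPKM, was 29.5% of the control mean, 3.83 ± 2.27 FPKM (SD, n = 2 each). The difference on log2(FPKM + 1) was -1.11 with a 95% interval from -2.14 to -0.07 (unadjusted p = 0.0405, limma, Benjamini-Hochberg adjusted p = 0.368). Without control replicate 2, which had the highest value, it was -0.61. At 5.43 FPKM or less in each library, Dusp2 was 7th or lower in level among the members.

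Dusp5, a nuclear phosphatase that acts on ERK alone, was at 33.2 and 33.66 FPKM in the 2 control libraries and 38.01 and 36.93 FPKM in those from Brg1-deficient cells. The libraries of each group lay close together and the groups did not overlap. The difference was small, 0.16 on log2(FPKM + 1) with a 95% interval from -0.19 to 0.51 (limma, Benjamini-Hochberg adjusted p = 0.666), and the ratio of the means was 1.12. An antisense transcript is annotated across the Dusp5 start, and its reads could not be told from those of Dusp5 if strand was not used in counting.

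Dusp6 and Dusp10 encode phosphatases with other locations and targets. Dusp6 (MKP-3), the cytoplasmic phosphatase specific for ERK, was at 48.15 and 54.55 FPKM in the 2 control libraries and 38.29 and 35.42 FPKM in those from Brg1-deficient cells. Both Brg1-deficient values were below both control values, with little spread within either group. The Brg1-deficient mean, 36.9 ± 2.03 FPKM, was 71.8% of the control mean, 51.4 ± 4.53 FPKM (SD, n = 2 each). The difference on log2(FPKM + 1) was -0.47 with a standard error of 0.149 and a 95% interval from -0.84 to -0.09 (unadjusted p = 0.0233, limma, Benjamini-Hochberg adjusted p = 0.304).

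Dusp10 (MKP-5), which prefers p38 and JNK, was at 70.7 and 43.46 FPKM in the 2 control libraries and 53.29 and 33.87 FPKM in those from Brg1-deficient cells. The groups overlapped, and replicate 1 was the higher library in both groups. The difference was -0.38 with a 95% interval from -1.17 to 0.42 (limma, Benjamini-Hochberg adjusted p = 0.655), and it was -0.03 and -0.72 without control replicates 1 and 2, and -0.70 and -0.06 without Brg1-deficient replicates 1 and 2. The opposite-strand gene 1700056E22Rik, which lies within the Dusp10 locus, was at no more than 2.59 FPKM.

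The order of the 4 middle phosphatases differed between the libraries. Among the 10 members, Dusp4 was 6th and 5th in the control libraries and 3rd in both Brg1-deficient libraries, whereas Dusp6 was 4th and 3rd in the controls and 5th in both Brg1-deficient libraries. A ratio of both genes within each library, chosen after their values were seen, was computed as a description. Dusp4 over Dusp6 was 0.390 and 0.725 in the control libraries and 2.05 and 1.80 in the Brg1-deficient ones, so Dusp4 was the lower of both in the controls and the higher in the Brg1-deficient cells. Dusp4 over Dusp5 was 0.566 and 1.17 in the control libraries and 2.06 and 1.72 in the Brg1-deficient ones. The share of Dusp4 in the summed FPKM of the 6 phosphatases was 1.06% and 2.22% in the controls and 5.60% and 3.59% in the Brg1-deficient cells.

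**Figure D3:**
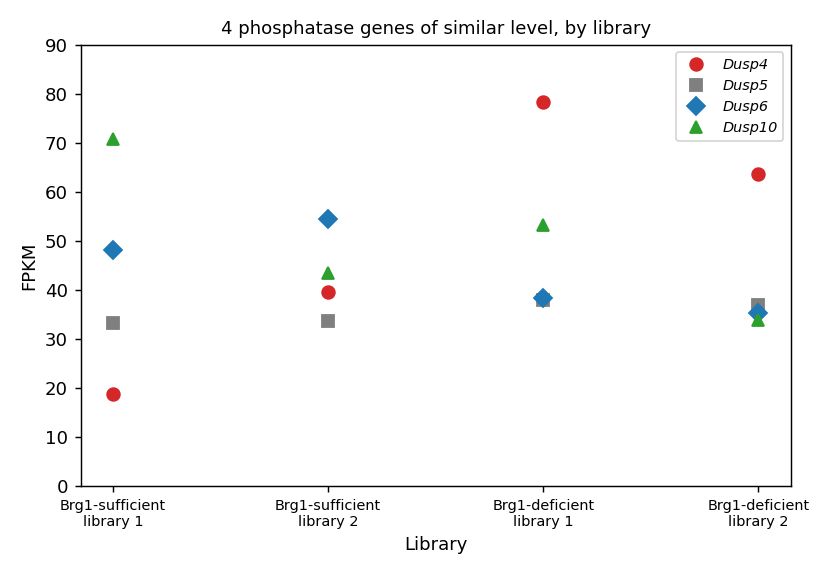
FPKM of Dusp4, Dusp5, Dusp6 and Dusp10 in each of the 4 libraries, with 1 marker per gene and library and an axis that starts at 0. Dusp4 is below Dusp6 in both Brg1-sufficient libraries and is the highest of the 4 genes in both Brg1-deficient libraries, at 78.33 and 63.59 FPKM.

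The Sprouty proteins Spry1 and Spry2 are membrane-associated inhibitors of receptor tyrosine kinase signalling. Spry2 was at 266.43 and 178.62 FPKM in the 2 control libraries and 253.29 and 229.74 FPKM in those from Brg1-deficient cells. Both Brg1-deficient values lay between the control values. The difference was 0.14 with a 95% interval from -0.41 to 0.69 (limma, Benjamini-Hochberg adjusted p = 0.815), and it was 0.43 and -0.14 without control replicates 1 and 2. Spry1 was much lower in level, at 7.01 and 4.24 FPKM in the control libraries and 4.87 and 3.62 FPKM in the Brg1-deficient ones. Its groups overlapped, and the difference was -0.32 with a 95% interval from -1.05 to 0.42 (limma, Benjamini-Hochberg adjusted p = 0.688). It was -0.01 and -0.62 without control replicates 1 and 2, and -0.49 and -0.14 without Brg1-deficient replicates 1 and 2. Spry2 exceeded Spry1 by 38.01- and 42.1-fold in the control libraries and by 52.0- and 63.5-fold in the Brg1-deficient ones.

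Spred1 and Spred2 encode Sprouty-related proteins that bring neurofibromin, a GTPase-activating protein that switches Ras off, to the membrane. Spred1 was at 1.34 and 1.68 FPKM in the control libraries and at 1.12 FPKM in both Brg1-deficient libraries, all of them close to the limit of 1 FPKM for the test. The 2 equal values again follow from nearly equal ranks. Spred2 was at 0.47 and 0.84 FPKM in the 2 control libraries and 1.1 and 1.12 FPKM in those from Brg1-deficient cells. The groups did not overlap for either gene, and they stood in opposite orders. The differences were -0.24 for Spred1, with a 95% interval from -1.02 to 0.54, and 0.36 for Spred2, with a 95% interval from -0.54 to 1.26 (limma, Benjamini-Hochberg adjusted p = 0.783 and 0.708). Leaving out single libraries moved Spred1 between -0.34 and -0.14 (the latter without control replicate 2) and Spred2 between 0.20 (without control replicate 1) and 0.52, and a pseudocount of 0.1 gave -0.39 and 0.73. Together the 4 Sprouty family genes summed to 275 and 185 FPKM in the controls and to 260 and 236 FPKM in the Brg1-deficient cells, nearly all of it from Spry2.

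For the member with the largest difference in each direction, the 3 genes with the most similar pattern over the 4 libraries were looked up by the Euclidean distance of centred log2(FPKM + 1) values. Only genes with a mean above 5 FPKM in either group were searched. Some of the genes named passed that limit only through the group where they were higher, which favours such a pattern. For Dusp4 they were Camk2b (0.135), Acy1 (0.136) and Gm10012 (0.170), of 9094 genes searched. For Dusp2 they were Fuom (0.178), Tnfrsf1a (0.306) and Gm24786 (0.322), of 9095 genes. A likeness over 4 libraries describes these libraries only.

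The rest of the pathway was read from 7 lists of named genes, in which 0 genes passed an adjusted p under 0.05 in limma with Benjamini-Hochberg adjustment. Over all genes tested, limma gave 6.47% lower and 6.12% higher genes at an unadjusted p under 0.05. These shares are the background for the counts of each list below. Of the other phosphatases of MAP kinases, 6 of 10 were tested, and 1 was lower and 0 were higher at an unadjusted p under 0.05. This gene was Dusp16 (MKP-7), a phosphatase of JNK and p38, at 15.27 and 8.38 FPKM in the control libraries and 6.47 and 4.55 FPKM in the Brg1-deficient ones (difference -0.94, adjusted p = 0.339 from limma). Dusp16 stood below both control values in both Brg1-deficient libraries, as Dusp2 and Dusp6 did. Spry4, the nearest relative of Spry1 and Spry2 among the genes tested, overlapped between the groups, at 2.72 and 1.9 FPKM in the controls and 2.46 and 1.52 FPKM in the Brg1-deficient cells.

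Upstream of the kinases, 8 of 12 other Sprouty family genes and Ras GTPase-activating proteins were tested, with 0 lower and 1 higher at an unadjusted p under 0.05. That gene was Rasa2, which promotes GTP hydrolysis by Ras, at 79.53 and 71.1 FPKM in the controls and 106.93 and 105.38 FPKM in the Brg1-deficient cells (difference 0.49, adjusted p = 0.244 from limma). Of the Ras proteins, adaptors and exchange factors, 13 of 18 were tested, and 2 were lower and 0 higher. Rasgrp2, an exchange factor activated by calcium, was at 17.63 and 5.6 FPKM in the controls and 1.56 and 4.18 FPKM in the Brg1-deficient cells (difference -1.61, adjusted p = 0.359 from limma). Mras, a Ras-related GTPase, was at 6.61 and 5.87 FPKM and at 3.08 and 2.54 FPKM in the same order (difference -0.93, adjusted p = 0.184 from limma).

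The kinases that the phosphatases act on were listed next. Of 13 ERK cascade kinases and scaffolds, 12 were tested with 0 lower and 0 higher at an unadjusted p under 0.05 and a median difference of 0.00. Of 22 p38 and JNK cascade genes, 19 were tested, and 2 were lower and 2 higher. Mapk9, which encodes JNK2, was at 14.98 and 12.24 FPKM in the controls and 3.52 and 5.42 FPKM in the Brg1-deficient cells (difference -1.43, adjusted p = 0.107 from limma). Mapk11, which encodes p38β, was listed at 0 and 0.24 FPKM in the controls and 1.46 and 1.22 FPKM in the Brg1-deficient cells (difference 1.07, adjusted p = 0.360 from limma). Mapk11 passed the limit on low values only through the Brg1-deficient group, which favours a higher value there. Of the 11 kinases that MAP kinases activate, 9 were tested with 0 in either direction at an unadjusted p under 0.05.

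Other transcripts that respond to ERK were listed because the members are often read beside them. Of 21 such genes, 16 were tested, with 1 lower and 2 higher at an unadjusted p under 0.05 and a median difference of 0.25, against 0.03 over all genes. Etv5, an ETS factor induced by ERK, was at 2.31 and 4.08 FPKM in the controls and 7.04 and 6.59 FPKM in the Brg1-deficient cells (difference 0.93, adjusted p = 0.266 from limma). Myc was at 10.49 and 8.97 FPKM and at 5.04 and 4.83 FPKM in the same order (difference -0.85, adjusted p = 0.171 from limma). Dusp4 and Dusp6, both ERK-responsive as well, stood on opposite sides: Dusp4 was higher in Brg1-deficient cells, as Etv5 was, and Dusp6 was lower, as Myc was.

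**Figure D4:**
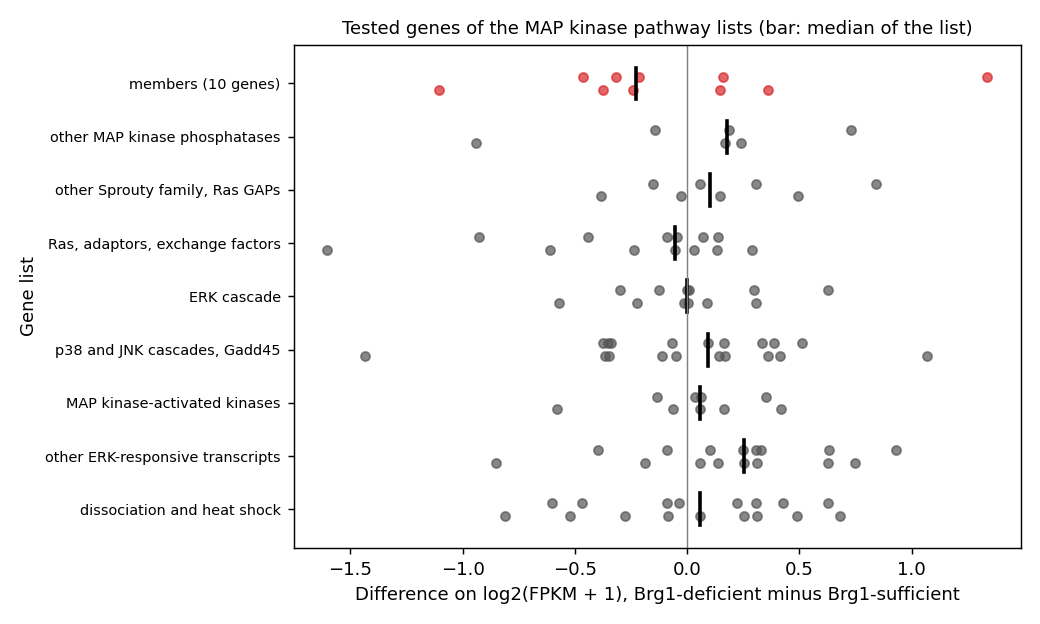
Difference between the groups on log2(FPKM + 1), Brg1-deficient minus Brg1-sufficient, for the tested genes of the members (red) and of 8 other lists (grey), with each list's median as a bar. The medians lie between -0.23 for the members and 0.25 for the other ERK-responsive transcripts, and genes of each list lie on both sides of 0.

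Dusp1 is also among the mRNAs known to be induced when tissue is digested. The list of 17 dissociation and heat shock genes, of which Dusp1 was not one, was tested in full, with 3 lower and 1 higher at an unadjusted p under 0.05, 0 at an adjusted p under 0.05 in limma and a median difference of 0.06. The summed level of the list was 29790 and 34192 FPKM in the controls and 32094 and 32300 FPKM in the Brg1-deficient libraries, so the groups overlapped. Hspa1b was at 126.52 and 105.58 FPKM in the controls and 52.69 and 81.28 FPKM in the Brg1-deficient cells (difference -0.81, adjusted p = 0.266 from limma). Hspa1a was at 4262.49 and 4651.9 FPKM and at 2605.66 and 3306.17 FPKM in the same order (difference -0.60, adjusted p = 0.267 from limma). The 1 higher gene, Atf3, was at 512.47 and 632.79 FPKM and at 902.96 and 709.56 FPKM (difference 0.49, adjusted p = 0.382 from limma). The groups did not overlap in 4 lower and 5 higher genes of the list, where this held for 20.2% and 24.4% of all genes. The 3 lower genes at an unadjusted p under 0.05 in limma were all heat shock genes. None of the 5 higher genes without overlap was one, and the lower ones also held a gene of another kind. The sum and the median of the list thus pool genes that stood in opposite orders. The part of digestion in the levels of the members was not tested.

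The identity of the sorted cells was checked against marker genes. Il7r and Il22, both on the ILC3 list of markers, were detected in each library, which alone does not set ILC3s apart from other lymphocytes. Markers of other cells differed between the groups beside the members: the summed T cell list (6 of 8 tested, 1 lower at an adjusted p under 0.05 in limma) was 202 and 89.5 FPKM in the controls and 20.3 and 35.9 FPKM in the Brg1-deficient cells, and the summed ILC2 list (9 of 11 tested, 6 lower and 1 higher at an unadjusted p under 0.05) was 379 and 213 against 117 and 141 FPKM, with some of the lower genes tested only through their control level. The B cell list (1 of 6 tested) summed to 9.94 and 10.9 FPKM in the controls and 2.89 and 1.70 FPKM in the Brg1-deficient cells, and its tested gene, Cd79b, was lower, from 8.68 and 10.02 to 1.03 and 0.99 FPKM (difference -2.36, limma, Benjamini-Hochberg adjusted p = 0.0386). Of the lists for ILC3 subsets, the CCR6+ list summed to 2339 and 2337 FPKM in the controls and to 885 and 1430 FPKM in the Brg1-deficient cells. In the NKp46+ ILC3, ILC1 and NK cell list, 2 of 11 tested genes, Ncr1 and Ifng, were lower at an adjusted p under 0.05 in limma, while its sum overlapped, at 719 and 1000 against 949 and 698 FPKM. At an unadjusted p under 0.05, 6 genes of this list were lower and 2 higher, with a median difference of -1.23. The epithelial list summed to at most 4.76 FPKM in a library, and no marker of any list was at 0 in all 4 libraries. The myeloid list was higher, with sums of 126 and 277 FPKM in the controls and 87.9 and 250 FPKM in the Brg1-deficient cells. Its groups overlapped, and the libraries of each group lay far apart, with replicate 2 the higher in both groups. The T cell, B cell, ILC2 and CCR6+ sums did not overlap between the groups, and their part in the levels of the members was not tested. Nor did the groups overlap in Dusp2, Dusp4, Dusp5, Dusp6, Spred1 and Spred2, or in 44.6% of all genes tested. In bulk RNA of this kind, fewer cells of a type and less RNA per cell cannot be told apart.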

How the data were processed

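The authors mapped the reads with STAR 2.5, quantified genes with RSEM 1.2 on GRCm38.p5 with GENCODE annotation, and deposited FPKM values per gene for 4 libraries. Sorted values were nearly identical between libraries: of 13693 ranks with a mean above 1 FPKM, 13596 (99.3%) differed by less than 1%, as quantile normalization gives, a step not given in the sources used here. Read counts were not used here, so depth per library is unknown and no counting interval was computed. The libraries listed 30046 to 36929 genes above 0.

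Libraries were grouped by genotype from their labels. Genes whose mean exceeded 1 FPKM in the control or the Brg1-deficient group were tested on log2(FPKM + 1) in R 4.3.3 with limma 3.58.1, using lmFit and a trended eBayes, two-sided, with Benjamini-Hochberg adjustment over all 14739 genes. A count test was planned only for deposited counts. P-values weigh a difference against the spread between libraries of a group, with a variance estimated by limma over many genes. The members and gene lists were chosen with earlier results of these data known. Named genes were all members, Smarca4, list genes at an adjusted p under 0.05, and per pathway list the 2 with the largest difference among genes without overlap and with an unadjusted p under 0.05. Spry4 and Atf3 were named outside this rule after their values were seen, and Ifng and Cd79b were named because they passed the test. UTRs came from the coding transcript with the longest coding sequence in GENCODE M21, and promoters from RefSeq. The script was tested on simulated data. Alternatives were another pseudocount, other filters, no trend, another scaling, a replicate block, and leaving out each library. ATAC-seq data were not analysed here. The name of the Cre transgene, one gene of the kinase lists and one marker gene are not reported here.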

Additional observations from a re-analysis of the deposited data

How the results depend on the processing

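Depth is unknown, and with 2 libraries a group the number of genes called depended on the fit. Limma with Benjamini-Hochberg adjustment and its threshold of 0.05 called 33 lower and 12 higher genes, against 0 and 0 without a filter on low values (1400 and 1308 before adjustment), 73 and 41 with a mean FPKM above 5, and 0 and 0 without the variance trend (965 and 903 unadjusted). Leaving out each library gave 0 to 0 genes in either direction. A pseudocount of 0.1 and median-ratio scaling, with factors from 0.98 to 1.02, left both counts within 1.5 times. The replicate block gave 248 lower and 150 higher genes. The labels share numbers between groups, but nothing says that they pair the libraries, and the deviations of same-numbered libraries correlated at -0.00039 across genes. With the replicate block 1 member, Dusp4, was higher at an adjusted p under 0.05 from limma (difference 1.34, standard error 0.284, adjusted p = 0.0471), and its adjusted p ranged up to 0.719 over the alternatives. No member was lower at an adjusted p under 0.05 in any of the 10 alternatives, in which 0 to 2 were lower at an unadjusted p under 0.05.

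Of 97 values of single members under these alternatives, 95 neither turned to the opposite sign nor crossed the threshold, and one of these, Dusp1 without Brg1-deficient replicate 1, was 0. Spry2 changed direction without WT replicate 2, the control replicate 2, from 0.14 to -0.14, and its values without single libraries ran from -0.14 to 0.43. Leaving out single libraries moved Dusp4 between 0.82 and 1.85, Dusp2 between -1.60 and -0.61, and Dusp6 between -0.55 and -0.38. The causes were not tested.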
